A study of Rattus norvegicus with 8 samples.

Results

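AP-1, Myc and the other early response genes are described here in perfused rat liver. The group was set by gene name as Jun, Junb, Jund, Fos, Fosb, Fosl2, Egr1, Myc, Ier2 and Ier3. Of these 10 genes, 9 were represented among the 14511 named genes of the arrays, and Fosb was not analysed here. Both groups were isolated livers of Wistar rats, all male and 6 to 10 weeks of age, through which Krebs-Henseleit buffer was run. The buffer had 305 mosm/L for the 4 normoosmotic samples and 225 mosm/L for the 4 hypoosmotic ones, and all 8 samples belong to the 180 min time point. No liver that had not been perfused and no earlier time point entered the comparison, so both groups shared the perfusion itself, and a transient change before 180 min would not be seen.

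AP-1 is a transcription factor made of pairs of proteins joined by leucine zippers, with a Jun protein (Jun, Junb, Jund) bound to a Fos protein (Fos, Fosb, Fosl2) or to an ATF protein. Egr1 is a zinc finger factor, and Myc binds DNA only as a pair with Max and drives genes of growth and ribosome production. Most of these genes are switched on within minutes by MAP kinases acting on factors already present, and their mRNAs are short-lived. In liver they are known for their induction after partial hepatectomy, by growth factors and by the handling of the tissue, and swelling of hepatocytes in dilute buffer is known to activate MAP kinases.

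At 180 min, 2 of the 9 measured genes, Myc and Ier3, were lower in the hypoosmotic livers, 0 were higher and 7 did not pass the test (limma, Benjamini-Hochberg adjusted p under 0.05). Over all 14511 genes, 7.07% passed, 2.45% as higher and 4.62% as lower. With median centring of the arrays, the lower calls among all genes went from 65.3% to 75.7% of calls, while the count for the early response genes stayed at 2 lower and 0 higher. The share of lower calls went the other way with a further quantile normalization (640 of 1063), array weights (731 of 1183) and a block for the replicate number (612 of 1029). The median change of the 9 genes was -0.04 on the log2 scale, beside 0.015 over all genes. Hypoosmotic and normoosmotic values did not overlap for Fos, Myc and Ier3, which is 3 of the 9, beside 13.5% of all genes. The Jun family, Egr1 and Ier2 had overlapping groups.

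**Figure D1:**
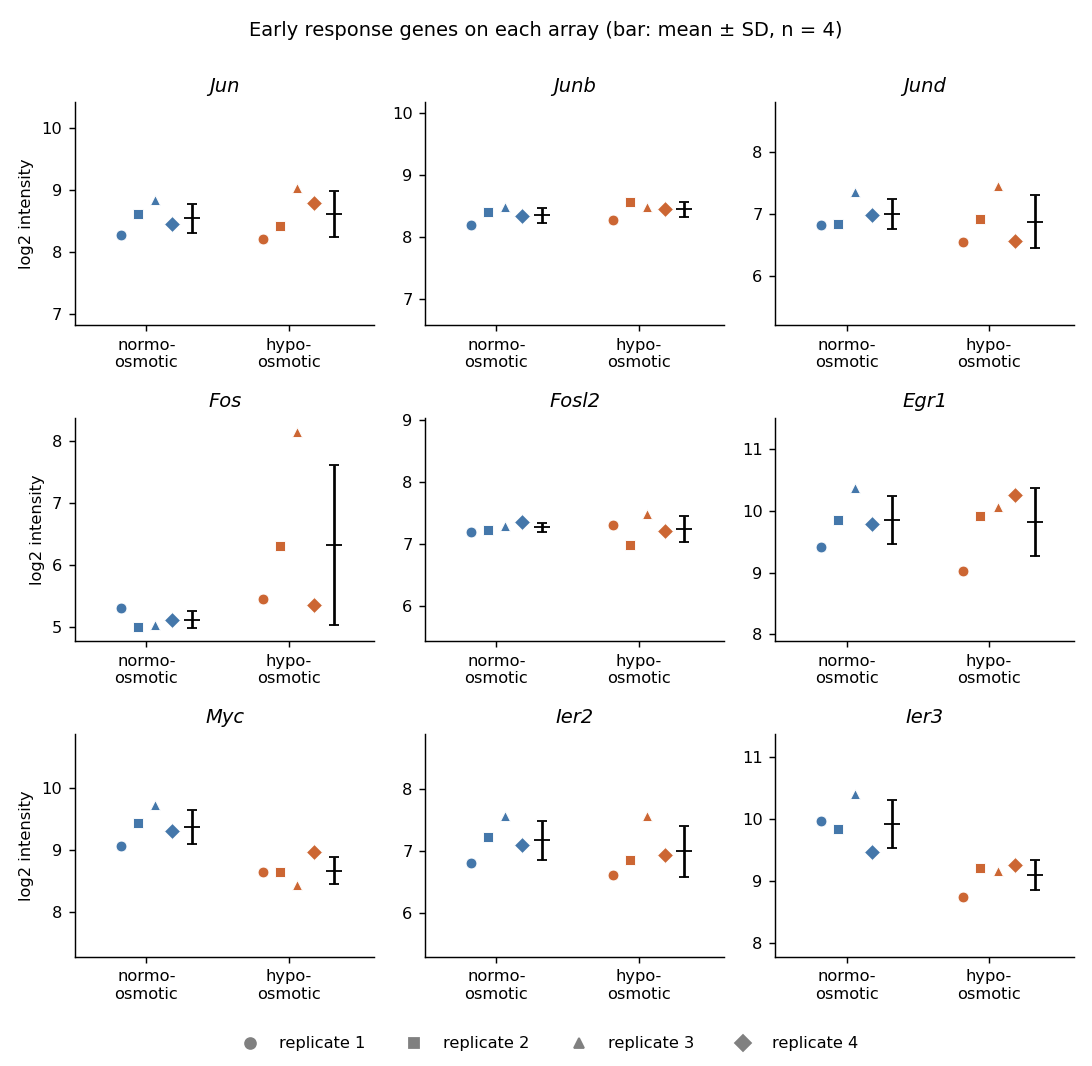
Log2 intensity of the 9 measured early response genes on each of the 8 arrays (y axis, each panel spanning the same number of log2 units), by group (x axis), with marker shapes for replicate numbers and bars for mean ± SD (n = 4). Myc and Ier3 lie lower in all 4 hypoosmotic samples, and Fos reached 8.15 in hypoosmotic replicate 3 against 5 to 5.31 in the normoosmotic samples.

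A few facts of the arrays bear on these values. The deposited values are log2 intensities from tissue homogenates, so fewer cells of a type and less RNA per cell cannot be told apart. Whether each sample was a liver of its own is not given in the labels, so the p-values reflect spread among samples that could be technical only. With 4 arrays per group the number of arrays limits the precision. Hypoosmotic replicate 3 stood apart from its group, with a root mean square deviation from the group mean of 0.26 over all genes against 0.17 to 0.22 on the other 7 arrays. Hepatocyte markers were at a summed log2 level of 15.3 to 15.4 on the normoosmotic and 15.3 on the hypoosmotic arrays, and 0 of 10 passed the test. Of the markers of other cells, Kdr of endothelium and Ahsp of red cell precursors passed, each in only 2 of the 8 fits that left out 1 array. Summed log2 levels of 4 red cell markers ran from 6.17 to 8.83 on the normoosmotic and from 7.21 to 7.62 on the hypoosmotic arrays. For 6 endothelial markers the sums ran from 9.60 to 9.80 and from 9.79 to 10.4, with changes from 0.13 to 0.66. Ahsp, 8 of 9 neutrophil markers, 3 of 8 lymphocyte markers and 1 of 4 cholangiocyte markers were near background in both groups. Near background here means under a level of 3.07, below which 95% of 1105 odorant receptor genes lay, and which was chosen after seeing the data.

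Promoters of 4 of the genes are given to show which response elements they carry near the start site. The RefSeq table of rat promoters (build GRCr8) held 6 of the 10 genes, and the 250 bases before the start were searched on both strands. It had no entry for Jun, Fos, Myc and Ier3, so the promoters of Myc and Ier3, the genes that passed, were not searched. The motifs were the CArG box bound by serum response factor, TGACGTCA bound by CREB and ATF proteins, TGACTCA bound by AP-1, TATAAA, the E-box CACGTG bound by Myc with Max, and GCGGGGGCG and GCGTGGGCG bound by Egr1. No matches overlapped. Each line reads 5′ to 3′ toward the start site, and capitals mark matches.
Egr1, GRCr8 chr18:26736828-26737077, plus strand: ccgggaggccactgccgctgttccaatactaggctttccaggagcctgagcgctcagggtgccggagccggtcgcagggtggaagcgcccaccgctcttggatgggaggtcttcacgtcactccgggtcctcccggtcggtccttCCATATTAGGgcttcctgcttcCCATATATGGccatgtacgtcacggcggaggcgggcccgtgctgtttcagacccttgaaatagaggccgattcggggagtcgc
Ier2, GRCr8 chr19:40399123-40399372, plus strand: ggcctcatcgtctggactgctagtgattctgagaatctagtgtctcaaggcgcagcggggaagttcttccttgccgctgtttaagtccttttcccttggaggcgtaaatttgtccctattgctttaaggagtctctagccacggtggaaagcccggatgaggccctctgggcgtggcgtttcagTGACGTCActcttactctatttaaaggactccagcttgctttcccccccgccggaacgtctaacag
Junb, GRCr8 chr19:40080876-40081125, plus strand: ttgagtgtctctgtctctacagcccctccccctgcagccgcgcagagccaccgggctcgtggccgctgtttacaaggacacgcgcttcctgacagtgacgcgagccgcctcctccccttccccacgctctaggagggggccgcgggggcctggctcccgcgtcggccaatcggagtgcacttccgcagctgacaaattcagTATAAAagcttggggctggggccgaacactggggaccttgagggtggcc
Jund, GRCr8 chr16:18769772-18770021, minus strand: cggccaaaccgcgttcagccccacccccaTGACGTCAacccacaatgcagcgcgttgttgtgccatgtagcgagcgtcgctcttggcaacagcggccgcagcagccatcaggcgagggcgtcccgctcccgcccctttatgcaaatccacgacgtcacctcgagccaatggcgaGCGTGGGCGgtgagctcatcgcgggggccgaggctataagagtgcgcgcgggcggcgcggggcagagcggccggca

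The Egr1 promoter held 2 CArG boxes, CCATATTAGG at 105 to 96 and CCATATATGG at 83 to 74 bases before the start. A CArG box was found in 1.5% of the 33469 rat promoters searched. The Ier2 promoter held TGACGTCA at 66 to 59 bases and the Jund promoter at 221 to 214 bases before the start, a motif of 1.59% of promoters. Jund also held GCGTGGGCG (0.478% of promoters) at 76 to 68 bases, and Junb held TATAAA (12.9%) at 49 to 44 bases. Of those not printed, Fosl2 held GCGGGGGCG (2.45%). Fosb held TATAAA only on the opposite strand, as TTTATA, at 180 to 175 bases before the start. The AP-1 motif (4.05% of promoters) and the E-box (5.59%) were in none of the 6. A match is a description of letters and says nothing of binding in these livers.

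Myc was at 9.06, 9.43, 9.72 and 9.30 in normoosmotic replicates 1 to 4 and at 8.64, 8.64, 8.43 and 8.96 in hypoosmotic replicates 1 to 4. Every hypoosmotic value was below every normoosmotic one, although the closest pair, 8.96 and 9.06, differed by little. The means were 9.38 ± 0.28 and 8.67 ± 0.22 (SD, n = 4 each), which is 1.64-fold lower in the dilute buffer. The log2 change was -0.71 with a 95% interval from -1.05 to -0.37 and an adjusted p of 0.0220. The call for Myc was lost without normoosmotic replicate 2 (adjusted p = 0.0556) or 3 (0.0604) and without hypoosmotic replicate 1 (0.0521) or 2 (0.0585), while the change stayed between -0.82 and -0.60 over the 8 fits that left out 1 array.

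Ier3, a stress-inducible gene tied to cell survival, was at 9.97, 9.83, 10.40 and 9.46 in the normoosmotic and at 8.74, 9.21, 9.16 and 9.25 in the hypoosmotic samples. Here too the groups did not overlap, and hypoosmotic replicate 1 was the lowest of the 8. The means were 9.92 ± 0.39 and 9.09 ± 0.24 (SD, n = 4 each), or 1.77-fold lower. The log2 change of -0.83 had a 95% interval from -1.24 to -0.41 and an adjusted p of 0.0255. It did not pass without normoosmotic replicate 1 (0.0645), 2 (0.0527) or 3 (0.0603), nor without hypoosmotic replicate 1 (0.0643) or 2 (0.0536). Its change over the fits without 1 array ran from -0.98 to -0.66. Neither Myc (adjusted p = 0.252) nor Ier3 (0.229) passed when tested against a change of at least 1.2-fold.

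Fos, the partner of the Jun proteins after which the family is named, was the least even of the 9 genes. It was at 5.31, 5, 5.04 and 5.11 in the normoosmotic samples and at 5.46, 6.31, 8.15 and 5.36 in the hypoosmotic ones. All 4 hypoosmotic values were above the normoosmotic ones, but replicates 1 and 4 only just, and replicate 3 far above. The means were 5.12 ± 0.14 and 6.32 ± 1.29 (SD, n = 4 each), and the SD was 9.38 times as large in the hypoosmotic group. The change of 1.21 on the log2 scale had a 95% interval from 0.14 to 2.27 and did not pass after adjustment over all genes (adjusted p = 0.179). Without hypoosmotic replicate 3 the change was 0.60 (adjusted p = 0.127). The same array also had the highest summed level of 6 measured endothelial markers (10.4, against 9.60 to 9.80 in the normoosmotic and 9.79 to 10.2 in the other hypoosmotic samples). It likewise had the highest of 10 stellate cell markers (10.5, against 9.96 to 10.1 and 9.86 to 10.3). Of these markers 1 of 6 and 0 of 10 passed the test, none was near background in both groups, and their part in the Fos values was not tested.

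The other measured Fos family gene, Fosl2, was between 7.19 and 7.36 in the normoosmotic samples and between 6.98 and 7.48 in the hypoosmotic ones. The groups overlapped, and the change of -0.02 had a 95% interval from -0.28 to 0.24 (adjusted p = 0.958). A second probe set of Fosl2 gave a change of -0.05 (adjusted p = 0.923 over all probe sets). Fosl2 was the only one of the 9 genes with more than 1 probe set.

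Of the Jun family, Jun itself was at 8.28, 8.61, 8.84 and 8.46 in the normoosmotic and 8.21, 8.43, 9.03 and 8.80 in the hypoosmotic samples. The lowest and the highest of these 8 values were both hypoosmotic. Junb was the most even of the 9 genes, between 8.19 and 8.48 in the normoosmotic and between 8.28 and 8.56 in the hypoosmotic samples, and Jund ran from 6.82 to 7.35 and from 6.55 to 7.46. The changes were 0.07 for Jun (95% interval -0.33 to 0.47, adjusted p = 0.891), 0.09 for Junb (-0.14 to 0.33, 0.717) and -0.12 for Jund (-0.56 to 0.32, 0.814). The intervals left room for a Jun or Jund change of up to 0.47 or -0.56 log2 units, so a modest difference was not detectable with these samples.

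Egr1 was at 9.42, 9.85, 10.36 and 9.79 in the normoosmotic and at 9.03, 9.92, 10.06 and 10.26 in the hypoosmotic samples, with a mean of 9.86 ± 0.39 against 9.82 ± 0.54 (SD, n = 4 each). Its groups overlapped, and 3 of the 4 hypoosmotic values lay within the normoosmotic range. The change was -0.04 with a 95% interval from -0.61 to 0.53 (adjusted p = 0.966). Ier2, which encodes a nuclear protein of the early response, was at 6.81, 7.23, 7.57 and 7.09 and at 6.61, 6.86, 7.57 and 6.94, with the same highest value in both groups. Its change was -0.18 (95% interval -0.64 to 0.28, adjusted p = 0.718).

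**Figure D2:**
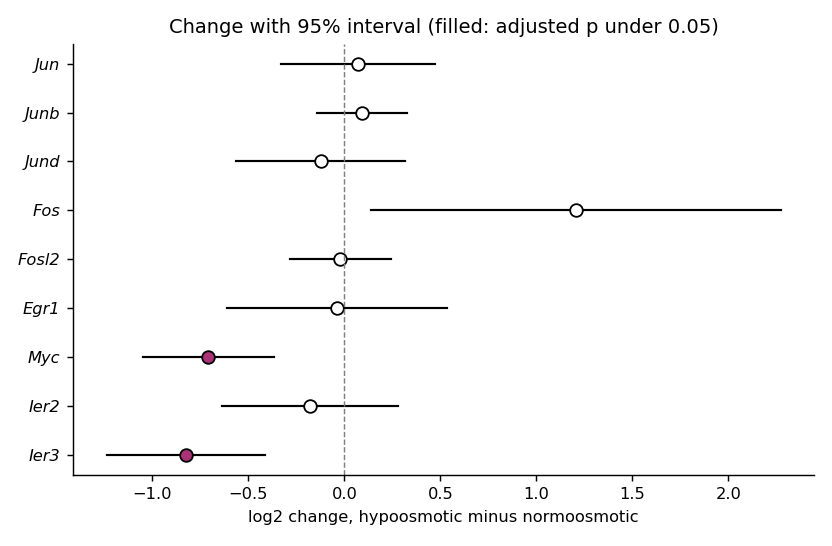
Log2 change of each gene, hypoosmotic minus normoosmotic (x axis), with its limma 95% interval, for the 9 measured genes (y axis). Filled points passed an adjusted p of 0.05. Only the intervals of Fos, Myc and Ier3 lie wholly on one side of 0, and the interval of Fos, from 0.14 to 2.27, is the widest of the 9.

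Within a group, the samples differed widely from each other in most of these genes. The pooled SD within groups had a median of 0.32 over the 9 genes, beside 0.18 over all genes. Fos (0.92) was at the 99.8th percentile of all genes, Egr1 (0.47) at the 97.4th, Ier2 (0.37) at the 93.8th, Jund (0.35) at the 92.6th, Ier3 (0.32) at the 90.0th and Jun (0.31) at the 88.7th. Myc (0.25) lay at the 76.3rd percentile, and Fosl2 (0.16) and Junb (0.12) lay at the 36.5th and 17.8th. Without hypoosmotic replicate 3 the pooled SD of Fos was 0.35, at the 94.2nd percentile, and that of Jund 0.23, at the 75.5th. For Fosl2 it was 0.10 without hypoosmotic replicate 2, at the 13.1st percentile.

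Several of the genes deviated on the same arrays. In the normoosmotic group, Jun, Junb, Egr1, Myc and Ier2 ranked the samples in 1 order, with replicate 3 highest, then 2, then 4, and replicate 1 lowest. That order was seen in 3.56% of all genes, and it was noticed in these values, not predicted. Replicate 3 was above its group mean for 8 of the 9 genes, and Fos alone was below. In the hypoosmotic group, replicate 1 was below its group mean for 8 of the 9 genes and replicate 3 above for 8 of 9, with Myc as the exception. Egr1 deviated from its hypoosmotic mean by -0.79 in replicate 1 and by 0.44 in replicate 4.

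Over the 8 arrays, Pearson correlations of Jun were highest with Ier2 (0.86), Egr1 (0.85), Junb (0.66) and Jund (0.66). Without hypoosmotic replicate 3 they were 0.78, 0.94, 0.63 and 0.42. With Fos, Fosl2 and Ier3, Jun correlated by only 0.47, 0.43 and 0.21 over the 8 arrays. Without hypoosmotic replicate 3 those values were -0.34, 0.07 and 0.49. Myc correlated by 0.08 with Jun over the 8 arrays and by 0.63 without hypoosmotic replicate 3, both with the group difference of Myc included. As deviations from group means over 8 arrays, Myc correlated by 0.58 with Egr1, 0.36 with Jun and 0.22 with Ier2. It correlated by 0.50 with Junb, 0.45 with Ier3, -0.10 with Jund, -0.16 with Fosl2 and -0.57 with Fos. On hypoosmotic replicate 3, where Jun, Jund and Ier2 were high, Myc was at its lowest. These are descriptions over n = 8 arrays that share tissue, processing and normalization, and no test was made.

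**Figure D3:**
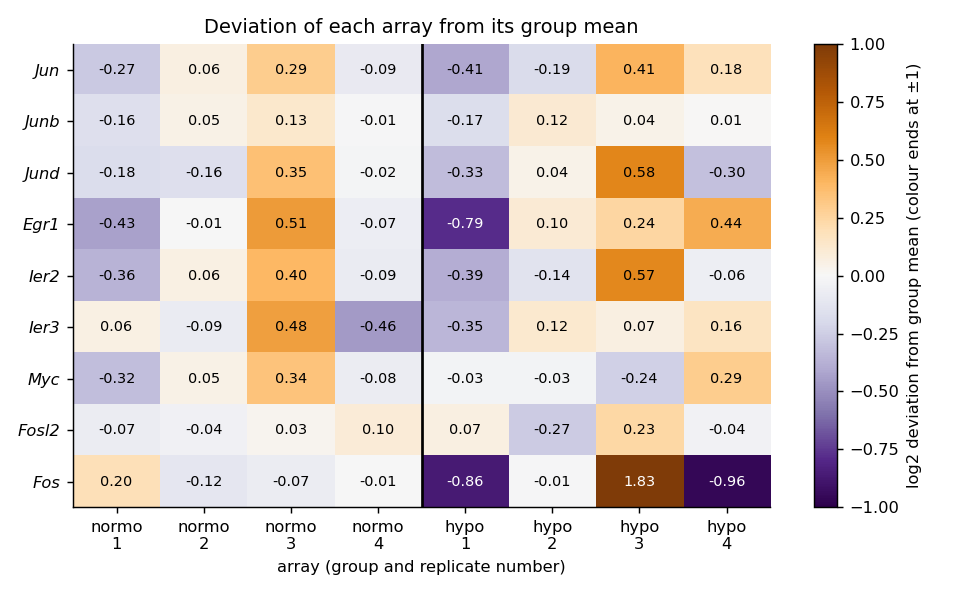
Deviation of each array from the mean of its own group, in log2 units, for the 9 genes (rows) and 8 arrays (columns, group and replicate number). Colours end at ±1, and the Fos value on hypoosmotic replicate 3, at 1.83, lies beyond. Normoosmotic replicate 3 is high and hypoosmotic replicate 1 low in most rows.

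Among the factors that pair with Jun or bind related sites, 3 of 14 measured genes fell and 0 rose, beside 7.07% called among all genes. The list median was -0.37, beside 0.015 over all genes. Atf7, which can pair with Jun, went from 6.71 ± 0.12 to 5.91 ± 0.16 (SD, n = 4 each), a change of -0.80 (adjusted p = 0.00431), and passed in all 8 fits without 1 array. Creb1 (-0.55, adjusted p = 0.0204) and Atf1 (-0.51, 0.0303), both activators at cAMP response elements, fell as well. Creb1 passed in 5 of those fits (highest 0.0556, without normoosmotic replicate 2) and Atf1 in 3 (highest 0.0829, without normoosmotic replicate 3), and the list count was 1 without normoosmotic replicate 1, 2 or 4. The Fos relative Fosl1 had a change of -0.43 (0.504) and Atf3, a stress-induced partner of Jun, one of -0.49 (0.265), and neither passed.

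Upstream of AP-1, 2 of 12 measured MAP kinase genes fell and 0 rose, beside 7.07% called among all genes, and both encode kinases that activate JNK, the kinase of Jun. Map2k7 was at 6.08, 6.12, 6.10 and 5.82 in the normoosmotic and at 5.51, 5.40, 5.22 and 5.33 in the hypoosmotic samples, with no overlap and a change of -0.67 (adjusted p = 0.00760). Map2k4 changed by -0.42 (0.0280), but passed in only 1 of the 8 fits without 1 array (highest 0.0862, without normoosmotic replicate 3). Only 1 of the 12 passed without normoosmotic replicate 1, 2 or 3 or hypoosmotic replicate 1, 2 or 3. Mapk14, the p38 kinase gene, had a change of 0.52 (adjusted p = 0.0909) and passed as higher without normoosmotic replicate 4 (0.0491), where Map2k4 did not pass. The JNK genes themselves, Mapk8 (-0.39, adjusted p = 0.234) and Mapk9 (0.37, 0.327), did not pass.

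Of 7 measured genes for serum response factor and its partners, 2 rose and 2 fell, beside 7.07% called among all genes. Srf had a change of 0.16 (adjusted p = 0.806). Its partner Elk1, an activator when phosphorylated by MAP kinases, went from 5.98 ± 0.10 to 5.49 ± 0.12 (change -0.49, adjusted p = 0.0173), while Elk3, a relative known as a repressor, went from 4.68 ± 0.11 to 5.20 ± 0.18 (0.53, 0.0223). The acetyltransferase gene Crebbp fell by 0.54 (0.0199), and the cofactor gene Fhl2 rose from 4.45 ± 0.05 to 5.53 ± 0.62 (SD, n = 4 each), with an adjusted p of 0.0248. Elk1 passed in 7 of the 8 fits without 1 array (0.0524 without normoosmotic replicate 4). Elk3 (highest 0.0629, without normoosmotic replicate 4), Crebbp (0.0661, without normoosmotic replicate 3) and Fhl2 (0.0648, without normoosmotic replicate 3) passed in 4 each. The count for the list fell to 0 without normoosmotic replicate 4 and to 1 when replicate 2 of that group was left out, and it was 2 without normoosmotic replicate 1 or 3 or hypoosmotic replicate 2.

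Of 13 measured genes of the Myc network, 2 were higher, 3 were lower and 8 did not pass, beside 7.07% called among all genes. The list held partners, antagonists, relatives and cofactors of Myc, and its median change was -0.025. Max, the obligatory partner of Myc, was at 8.31, 8.69, 8.56 and 8.50 in the normoosmotic and 7.91, 8.14, 7.52 and 8.08 in the hypoosmotic samples. These groups did not overlap, and the change was -0.60 (adjusted p = 0.0323). Mxd1, which pairs with Max and represses Myc sites, was at 6.79, 7.26, 6.75 and 6.86 and at 8.19, 8.82, 7.69 and 7.95. All 4 hypoosmotic values of Mxd1 were above all normoosmotic ones, a 2.37-fold difference (change 1.25, adjusted p = 0.00857). Mxi1, of the same antagonist family, rose by 0.65 (0.0242), while the related Mxd3, Mxd4 and Mnt did not pass.

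Zbtb17, a zinc finger factor that Myc binds, fell by 0.51 (adjusted p = 0.0173), and Trrap, a cofactor named after its value was seen, by 0.41 (0.0447). Mxd1 passed in all 8 fits without 1 array and Zbtb17 in 7 (0.0588 without normoosmotic replicate 3). Max passed in 4 (highest 0.0873, without normoosmotic replicate 3), Mxi1 in 3 (highest 0.0666, without normoosmotic replicate 1) and Trrap in 0 (highest 0.133, without normoosmotic replicate 3). With all probe sets of a gene averaged, Max (0.0682) and Mxi1 (0.0668) did not pass. The count for the list, 5 in all, was 1 without normoosmotic replicate 3, 2 without normoosmotic replicate 4 or hypoosmotic replicate 1, and 3 without normoosmotic replicate 1 or 2 or hypoosmotic replicate 2.

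**Figure D4:**
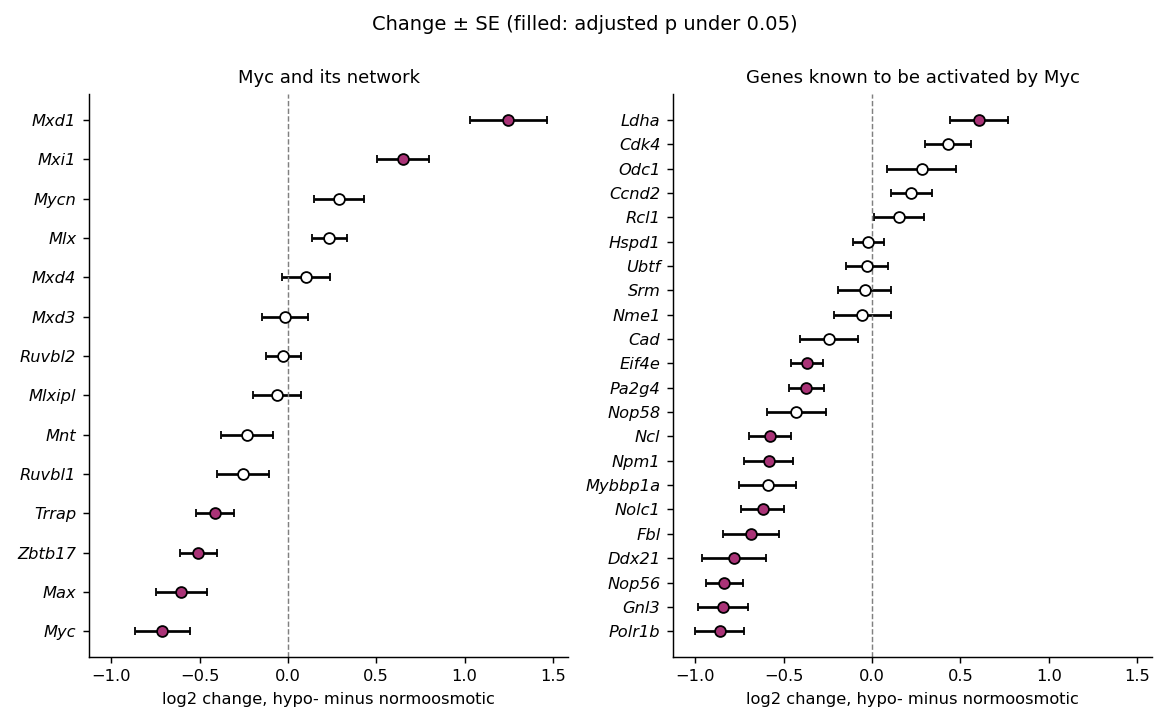
Log2 change ± SE, hypoosmotic minus normoosmotic (x axis), of Myc and 13 genes of its network (left) and of 22 genes known to be activated by Myc (right). Filled points passed an adjusted p of 0.05. Myc and Max lie at -0.71 and -0.60, while Mxd1 and Mxi1 lie at 1.25 and 0.65. Of the 13 network genes 8 did not pass, among them Mxd3, Mxd4 and Mnt, and the list median was -0.025.

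The list median of 22 genes known to be activated by Myc was -0.37, beside 0.015 over all genes. Of the 22, 10 fell and 1 rose, beside 7.07% called among all genes. Most of those that fell encode nucleolar proteins of ribosome production, and several were known to be lower before this list was drawn up, so the count is not independent evidence. Nolc1, a nucleolar chaperone, was at 7.06, 7.15, 7.50 and 7.19 and at 6.66, 6.51, 6.49 and 6.77, with no overlap and a change of -0.62 (adjusted p = 0.0137). The changes were -0.84 for Nop56 (0.00347), -0.86 for Polr1b (0.00712) and -0.85 for Gnl3 (0.00785), and these 4 genes passed in all 8 fits without 1 array. Ldha, which makes lactate dehydrogenase A and is named after its value was seen, rose by 0.61 (0.0486), but passed in only 2 of those fits (highest 0.139, without normoosmotic replicate 3) and not with arrays centred on their medians (0.0726).

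The number of Myc-activated genes that fell was 4 without normoosmotic replicate 3, 5 without normoosmotic replicate 4 or hypoosmotic replicate 2, and 6 without normoosmotic replicate 1 or 2 or hypoosmotic replicate 3. The polyamine synthesis gene Odc1 (0.28, adjusted p = 0.499), Cdk4 (0.43, 0.0770) and the nucleotide synthesis gene Cad (-0.25, 0.468) did not pass.

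Of 18 measured genes known to be activated by AP-1, Timp1 rose and Cd44 fell, and of 10 known to be activated by Egr1, 2 fell, beside 7.07% called among all genes. Timp1, an inhibitor of matrix metalloproteinases, went from 8.94 ± 0.36 to 10.13 ± 0.47 (SD, n = 4 each), a change of 1.19 (adjusted p = 0.0139) that passed in all 8 fits without 1 array. Cd44, the hyaluronan receptor, fell by 0.89 (0.0323) and passed in 3 (highest 0.0824, without normoosmotic replicate 2), and the count for these AP-1 targets was 1 without normoosmotic replicate 1 or 3. Of the Egr1 targets, F3, tissue factor, fell by 0.76 (0.0287) and Nab2, a corepressor of Egr1, by 0.47 (0.0372), and 0 rose. F3 passed in 4 of the fits without 1 array (highest 0.0824, without normoosmotic replicate 4) and Nab2 in 1 (highest 0.0996, without normoosmotic replicate 1). The count for the Egr1 targets was 0 without normoosmotic replicate 3 or 4 or hypoosmotic replicate 2, and 1 without normoosmotic replicate 1 or 2 or hypoosmotic replicate 3.

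Many early response mRNAs carry AU-rich elements, which are bound by proteins that set how fast such mRNAs decay. Of 9 measured genes for these proteins, 4 fell and 0 rose, beside 7.07% called among all genes, and the list median was -0.39. Elavl1, which stabilises such mRNAs, was at 8.59, 8.63, 8.65 and 8.73 in the normoosmotic and at 8.10, 8.12, 7.81 and 8.05 in the hypoosmotic samples. The groups were far apart relative to their spread, and the change was -0.63 (adjusted p = 0.00731). Cnot7 (-0.57, adjusted p = 0.0111) and Cnot1 (-0.39, 0.0365), genes of a deadenylase complex, and Khsrp (-0.44, 0.0219), which promotes decay, fell as well. Elavl1 and Cnot7 passed in all 8 fits without 1 array, Khsrp in 5 (highest 0.0726, without normoosmotic replicate 3) and Cnot1 in 1 (highest 0.0987, without normoosmotic replicate 1). The count was 2 without normoosmotic replicate 2 or 3 or hypoosmotic replicate 1. Zfp36, a decay factor that is an early response gene itself, had a change of 0.09 (0.747).

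Genes of the wider early response passed in both directions. Of 16 other early response transcription factors 1 rose and 1 fell, with a list median of 0.08, and of 24 other early response genes 0 rose and 2 fell, with a median of -0.12, beside 7.07% called among all genes. The first were Klf10 (1.05, adjusted p = 0.00457) and Klf6 (-0.55, 0.0443), the latter passing in 2 of the 8 fits without 1 array (highest 0.123, without normoosmotic replicate 3). The others were Mcl1, an inhibitor of apoptosis (-0.55, 0.0225), and Gem, a small GTPase (-0.60, 0.0366). Mcl1 (highest 0.0650, without normoosmotic replicate 4) and Gem (0.101, without normoosmotic replicate 4) each passed in 4 of the 8 fits, and the list count was 0 without normoosmotic replicate 3 or 4 and 1 without normoosmotic replicate 1 or hypoosmotic replicate 1 or 2. Mcl1 did not pass with its probe sets averaged (0.111). Egr2 (0.19, 0.485), Egr3 (0.27, 0.231) and Nr4a1 (0.11, 0.888) did not pass.

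**Figure D5:**
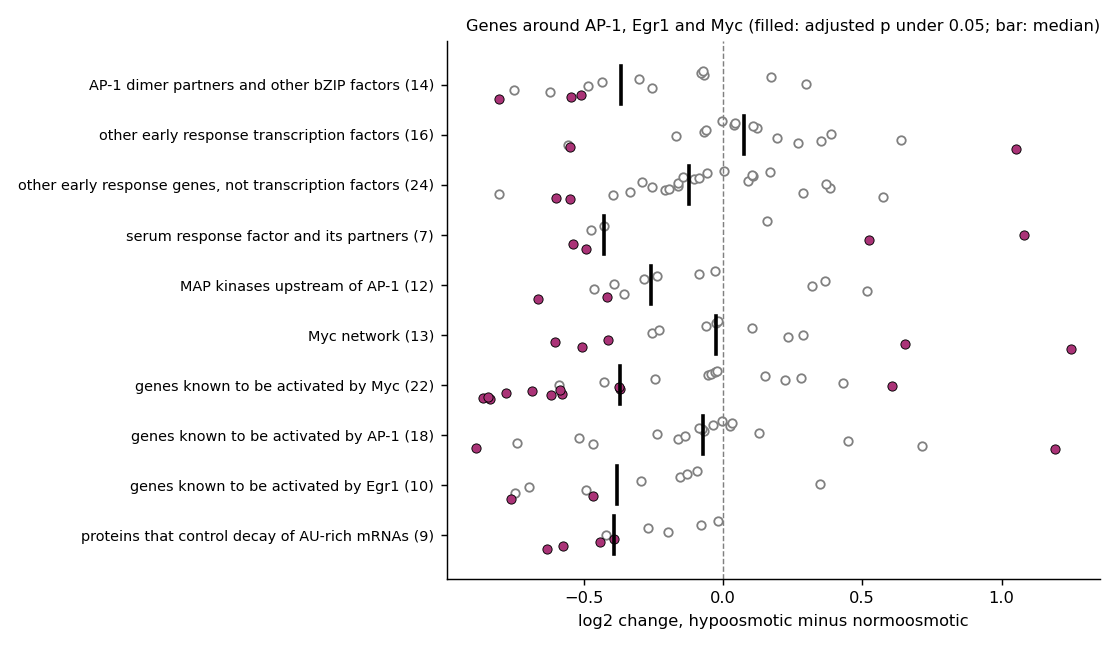
Log2 change, hypoosmotic minus normoosmotic (x axis), of each measured gene in 10 lists around AP-1, Egr1 and Myc (y axis, with the number measured). Filled points passed an adjusted p of 0.05 and vertical bars are list medians. The Myc-activated genes hold 10 of the filled points below 0, but only 4 passed as lower without normoosmotic replicate 3. Several of them were known to be lower before the list was drawn up.

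Likeness was taken over the 8 arrays, group difference included, among genes at or above the 30th percentile of level. Most like Myc were Erc1 (Pearson r = 0.99), Sart1 (0.97) and Nolc1 (0.97), the last from the list of its known targets. Myc, Erc1 and Nolc1 were all called lower, which by itself raises such an r. For deviations from group means, r was 0.95, 0.90 and 0.91. Erc1 passed as lower (adjusted p = 0.0381), but in only 2 of the 8 fits without 1 array. Those most like Ier3 were Hspa8 (0.97), Il23a (0.97) and Polr1d (0.95). For Fos they were Nr1h4 (0.99), Cyb5b (0.98) and Cyp4b1 (0.98). Nr1h4, the bile acid receptor gene, was at 8.27 on hypoosmotic replicate 3 and between 6.46 and 7.31 on the other 7 arrays, so this likeness rests largely on that array. For Egr1 the most alike was Slc49a4 (0.96), for Jun Fgf4 (0.95), for Junb Osbpl1a (0.95), for Jund Sult2a2 (0.96), for Fosl2 Wnt6 (0.96) and for Ier2 Coq10a (0.95). With 8 arrays and this many genes, each of the 9 had neighbours at 0.92 or above, and no test was made.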

How the data were processed

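RNA from homogenised liver was labelled by a whole-transcript assay and hybridised to 8 Affymetrix arrays, per the labels' protocols. The authors deposited log2 values for 27596 probe sets, and RMA, Transcriptome Analysis Console 4.0 and Affymetrix Expression Console are the tools in the submitters' processing notes, with no role or order. RMA is known to equalise the distributions of arrays, which takes out shifts that most genes share. Array medians lay between 3.92 and 4.05. Scanner files and detection calls were not used here.

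Groups and replicate numbers came from the sample titles. By the 2016 annotation of the platform, 15316 probe sets had 1 gene symbol, 317 several and 11963 none, and symbols were updated through RefSeq. Where a gene had several (528 genes), the probe set of highest mean stood for it, which left 14511 genes. All were fitted in R 4.3.3 by lmFit and eBayes of limma 3.58.1 (group as the only term, Benjamini-Hochberg over all genes, threshold 0.05, from both tails), a fit first tested on simulated data. Changes are hypoosmotic minus normoosmotic means on the log2 scale. Python 3.11.15, pandas 2.3.3 and matplotlib 3.10.9 made the tables and plots.

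Named were all members, from each list of related genes up to 4 with the smallest p among those that passed (the 2 with the smallest p where none did), and the 3 genes most like each member, of which the text gives 3 or 1. Other genes, such as Trrap, Ldha, Mapk14, Kdr, Ahsp, Srf, Odc1 and the list genes that did not pass, were chosen after their values were seen. The members and the lists were chosen with earlier results of these data known. Other settings tried were array weights, variances that follow intensity, a block for the replicate number, quantile normalization once more, median centring, leaving out the 30% dimmest genes, averaging probe sets, testing all probe sets, a test against a 1.2-fold change, and leaving out each array in turn.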

Additional observations from a re-analysis of the deposited data

Results flagged for a closer look

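In 5 of 88 groups of 4 values checked, over 44 genes, 1 sample lay far from the other 3, and chance flags about 1 in 20 groups. Klf10 was at 5.17 in normoosmotic replicate 4 against 5.75 to 5.81 in the other normoosmotic samples. Map2k7 was at 5.82 in the same sample against 6.08 to 6.12. F3 was at 6.4 in hypoosmotic replicate 4 against 7.05 to 7.10. Ahsp, near background, was at 1.38 in normoosmotic replicate 1 against 1.6 to 1.64, and Erc1 was at 6.16 in hypoosmotic replicate 4 against 5.88 to 5.91. None of the 9 early response genes was among them.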

How the results depend on the processing

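The 2 early response genes that passed, Myc and Ier3, also passed with an intensity trend, array weights, a further quantile normalization, median centring, without the dimmest genes, with probe sets averaged and with all probe sets tested. Tested against a change of at least 1.2-fold, 0 of them passed, and 83 over all genes did. Leaving out 1 array gave 0 to 2 of these genes and 468 to 1051 over all genes, and fewer arrays also leave less power. The replicate number as a block gave the same 2 genes and 1029 calls over all genes. Same-numbered samples 1 to 4 correlated by 0.0061, 0.26, 0.12 and 0.06 in their deviations, not all above the 0.1 set for pairing, so they were taken to share only a number. As a hint from the data, normoosmotic replicates 2, 3 and 4 correlated best with their own number, and replicate 1 with hypoosmotic replicate 3 (0.11). With the block Klf6 (adjusted p = 0.0592), Map2k4 (0.0542), Cnot1 (0.0606), Trrap (0.0749) and Erc1 (0.0600) did not pass, and Mapk14 did (0.0470). With all probe sets tested, Klf6 (0.0614), Gem (0.0508), Nab2 (0.0520), Cnot1 (0.0516), Trrap (0.0629), Ldha (0.0669) and Erc1 (0.0533) did not pass. Trrap was also lost with the intensity trend (0.0561), Erc1 with quantile normalization (0.0501, just over the threshold) and Ahsp with that (0.0648) and with centring (0.0602). The named genes that passed kept their sign under each alternative in which they were fitted (Ahsp is not among the genes left without the dimmest). The sign of Jun turned with array weights, that of Fosl2 with quantile normalization, and those of Jun, Fosl2 and Egr1 when certain single arrays were left out, and these 3 passed under no alternative. The causes were not tested.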
